A study of Mus musculus with 22 samples.

Results

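Hearts of 6 mice killed 28 days after a lung dose of titanium dioxide nanoparticles were compared with hearts of 6 mice killed 28 days after the vehicle alone. These 12 arrays were chosen by their labelled treatment and day from the 22 arrays of the series, and the other 10 are hearts at day 1. Every mouse was a female C57BL/6 animal bought from Taconic at 5 to 7 weeks of age and acclimatized for 1 to 3 weeks. Under anaesthesia each received a single intratracheal instillation of 40 µl. For the treated group the liquid held 162 µg of nano-TiO2, and for the vehicle group it held no particles. Both liquids were MilliQ water with 0.9% NaCl and 10% bronchoalveolar lavage fluid freed of cells, so the controls also carried the salt, the lavage protein and the anaesthetics. One dose was given, once, to one sex of one strain. Heart RNA was labelled with Cy5 and hybridised against Cy3-labelled Agilent Universal Mouse Reference RNA, a pool from 11 mouse cell lines. The labels give the tissue as heart, whereas their extraction text speaks of sections of left lung. Hearts were cut into pieces before freezing, and the labels do not say which pieces were used.

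The heart muscle cell draws most of its energy from mitochondria. Fatty acids, glucose, ketone bodies and amino acids are broken down to acetyl groups, the citrate cycle strips electrons from them, and the respiratory chain passes these to oxygen while ATP synthase makes ATP. Around the muscle cells lie capillaries, arteries wrapped in smooth muscle, fibroblasts, resident macrophages, the mesothelial cells of the epicardium and, near the base of the heart, fat. A sample of whole tissue mixes all of these. In such bulk samples fewer cells of a type and less RNA per cell cannot be told apart.

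Each level below is the log2 ratio of heart Cy5 to reference Cy3 at one probe per gene, so levels of different genes are not comparable, and each difference is the nano-TiO2 mean minus the vehicle mean of these ratios. Mice are numbered 1 to 6 in each group by accession order. The vehicle and nano-TiO2 mouse of the same number shared a slide, of which there were 6. Probes well above background numbered 15336 to 21753 of 41174 in the vehicle hearts and 15198 to 19409 in the nano-TiO2 hearts, and the means, 18406 ± 2497 and 17155 ± 1491 (SD, n = 6 each), did not differ beyond the spread (exact two-sided permutation test, p = 0.323). Pairwise correlations between the 12 arrays ran from 0.901 to 0.985.

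All 23 sarcomere and Z-disc genes on the array, the contractile proteins that mark heart muscle, were well above background in every one of the 12 hearts. Other tissues were also detected, unevenly. Of 23 liver enzyme genes, 19, 18 and 22 were above background in vehicle mice 1, 3 and 4, and 6 to 10 in the other vehicle hearts; the nano-TiO2 hearts had 5 to 10. Of 29 alveolar and airway genes, 18 were detected in vehicle mice 1 and 5, 9 to 16 in the other vehicle hearts and 9 to 13 in the nano-TiO2 hearts. The surfactant protein Sftpc was not kept as a detected probe, while albumin (Alb) read 5.20, 3.59 and 5.29 in vehicle mice 1, 3 and 4 against -0.05 to 2.07 in vehicle mice 2, 5 and 6. Nano-TiO2 mouse 1 had 7 of 12 atrial genes above background, where each other heart had 10 or 11. Many list medians and single genes are therefore also given without vehicle mice 1, 4 and 5, a choice made after the values were seen. Of 135 genes followed, 51 kept their sign there with a difference smaller by more than 1.5-fold, and 7 had the other sign.

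**Figure D1:**
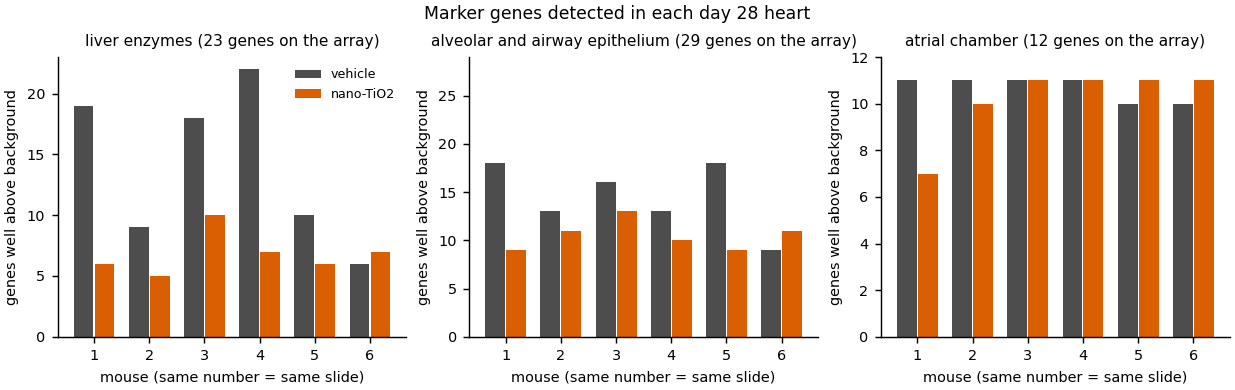
Bars give, for each of the 6 vehicle (grey) and 6 nano-TiO2 (orange) hearts at day 28, the number of listed marker genes well above background in Cy5, with the full height of each panel set to the genes on the array. Vehicle mice 1, 3 and 4 carried the most liver genes (18 to 22 of 23), vehicle mice 1 and 5 the most airway genes (18 of 29), and nano-TiO2 mouse 1 the fewest atrial genes (7 of 12).

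Across 15503 genes, none passed an adjusted p of 0.05 in limma, and the smallest adjusted p was 0.637, so no difference below passed the test. Differences carry their standard error (SE), and a gene named without a remark had an unadjusted p under 0.05. At an unadjusted p under 0.05 there were 1178 genes, 7.60% of those tested. The larger share was lower in the nano-TiO2 hearts, with 835 genes (5.39%) against 343 higher (2.21%). Of these 1178, 190 (1.23% of all tested) were lower by 1.5-fold or more and 2 (0.0129%) were higher by as much. The difference was above 0 for 48.1% and below 0 for 51.9% of all genes. These shares over all genes are the background for the list counts below. The 6 vehicle and 6 nano-TiO2 values did not overlap for 18 of the 15324 genes measured in all 12 hearts, 7 higher (0.0457%) and 11 lower (0.0718%). A difference of the same sign on every slide was seen for 137 genes higher (0.894%) and 209 lower (1.36%). Such genes also arise by chance, and whether these counts exceed chance was not tested. Neither trait therefore marks a gene as changed. The split at an unadjusted p under 0.05 depended on scaling. With each array centred on its median in place of loess, 382 genes were lower and 5 higher at that p. Under that centring 16.8% of all genes were above 0 and their median was -0.10, the background for its list values below. With the scanner's own log ratios 892 were lower and 915 higher.

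**Figure D2:**
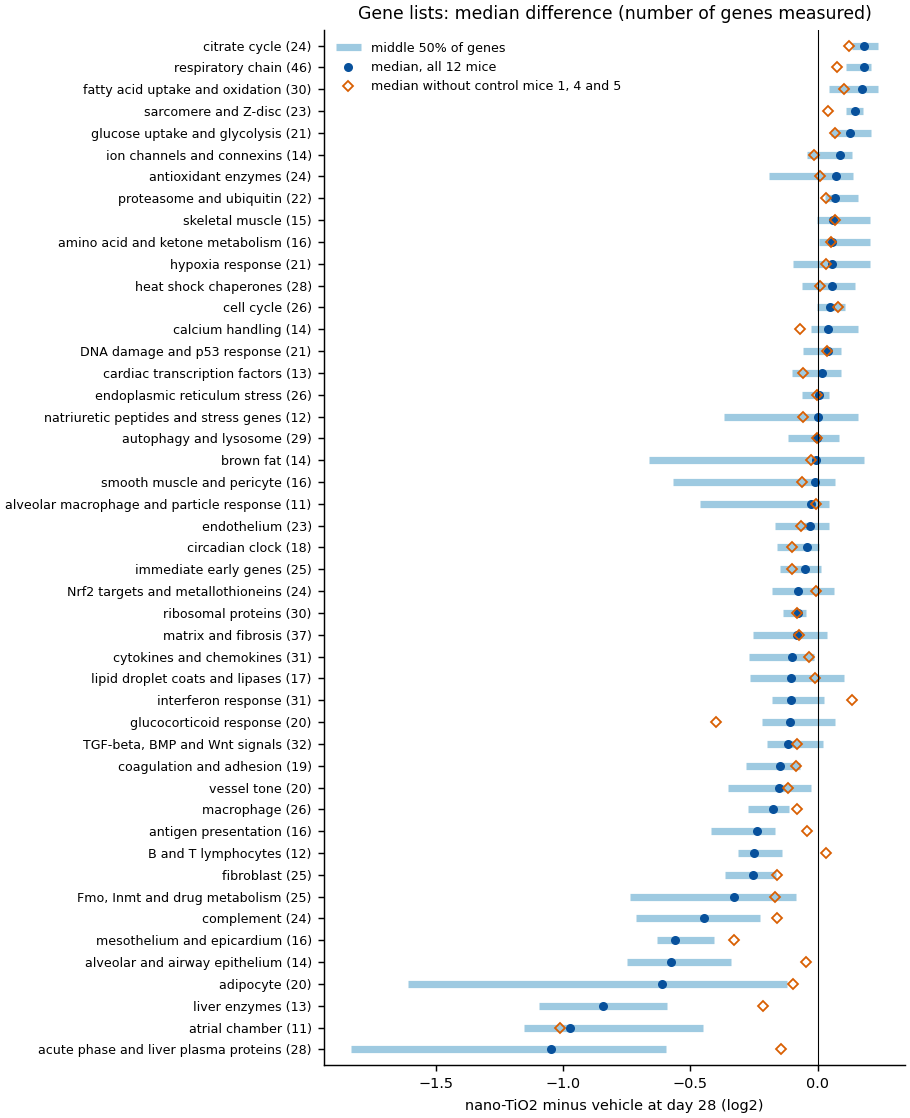
Each row is a list of genes with at least 10 measured members; filled circles give the median log2 difference, nano-TiO2 minus vehicle at day 28, bars the middle 50% of genes, and open diamonds the median without vehicle mice 1, 4 and 5. The citrate cycle and respiratory chain lists stand highest (0.18 and 0.18) and stay above 0 without those mice. Lists of liver plasma proteins, atrial, liver enzyme and adipocyte genes stand lowest. The sarcomere median is 0.15 here and -0.01 under median centring, where that of all genes is -0.10.

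All 46 measured genes of the respiratory chain list, which spans complexes I to V, had a higher mean in the nano-TiO2 hearts, with a median difference of 0.18 against -0.01 over all genes, and 6 of the 46 had a p under 0.05. The differences were small, from 0.03 to 0.43. Ndufb5, a complex I subunit, read 1.95, 2.41 and 2.68 (lowest, median and highest) in the vehicle hearts and 2.60, 2.81 and 3.11 in the nano-TiO2 hearts. It was higher on 6 of 6 slides, the sole member of the list to be so. The difference was 0.43 ± 0.14 (SE) or 1.35-fold, and the groups overlapped only between 2.60 and 2.68. Ndufa10, also of complex I, read 2.38, 2.54 and 2.76 against 2.58, 2.75 and 3.13, and was higher on 5 of 6 slides by 0.27 ± 0.10 (SE). Mouse 6 was the exception there, with 2.76 in the vehicle heart and 2.58 in the nano-TiO2 heart.

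Cytochrome c1 (Cyc1) and the Rieske protein Uqcrfs1 are both parts of complex III. Cyc1 read 1.77, 1.86 and 2.07 in the vehicle hearts and 1.88, 2.06 and 2.40 in the nano-TiO2 hearts, a difference of 0.21 ± 0.08 (SE). Uqcrfs1 was 2.94, 3.07 and 3.39 against 3.21, 3.28 and 3.55, with a difference of 0.21 ± 0.09 (SE). Nano-TiO2 mouse 1 was the highest of all 12 hearts for both genes. Sdhb, the iron-sulfur subunit of succinate dehydrogenase, differed by 0.24 ± 0.12 (SE) and the cytochrome oxidase subunit Cox5b by 0.31 ± 0.12 (SE), the latter on 5 vehicle and 4 nano-TiO2 arrays because outlier spots were left out. At the other end, cytochrome c (Cycs) differed by 0.03 ± 0.12 (SE, unadjusted p over 0.05) and Sdhc, an anchor subunit of succinate dehydrogenase, by 0.06 ± 0.14 (SE, unadjusted p over 0.05). The Cycs value rests on 4 hearts in each group.

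Fat transcripts differed between the same hearts. Among the nano-TiO2 hearts, mouse 1 had the highest respiratory chain mean (0.31, as a deviation from the mean of the 12 hearts) and the lowest adipocyte list mean (-1.52), whereas mice 3 and 6 had the lowest respiratory chain means (-0.05 and -0.04) and the highest adipocyte means (0.58 and 0.97). Among the vehicle hearts, mouse 6 had the highest respiratory chain mean (0.14) and the lowest adipocyte mean (-0.58). The part of the fat transcripts in the difference was not tested. Without vehicle mice 1, 4 and 5 the median was 0.08, with 35 of 46 genes above 0 where 44.7% of all genes were, and with nano-TiO2 mouse 1 left out as well it was 0.03. With all 12 hearts it was 0.10, 0.41 and 0.02 within the 3 scan days, each with 2 hearts per group. With the slide as a block it was 0.17. Under median centring it was 0.02, with 29 of the 46 genes above 0. In that setting 16.8% of all genes were above 0, with a median of -0.10.

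The citrate cycle list, which includes pyruvate dehydrogenase and its kinases, had 23 of 24 genes higher and a median difference of 0.18. A p under 0.05 was seen for 7 genes, where 2.21% of all genes were higher at that p. Suclg2, the GTP-forming subunit of succinyl-CoA ligase, read 0.81, 0.90 and 1.19 in the vehicle hearts and 1.02, 1.37 and 1.52 in the nano-TiO2 hearts. It was higher on all 6 slides, by 0.36 ± 0.10 (SE), with only vehicle mouse 1 inside the nano-TiO2 range. The difference is 1.28-fold, and that of its other kept probe was 0.12 on the log2 scale. Mitochondrial isocitrate dehydrogenase Idh2 read 2.75, 2.93 and 3.45 against 2.99, 3.37 and 3.52, a difference of 0.30 ± 0.12 (SE), and the groups overlapped because vehicle mice 3 and 6 were high. The NAD-dependent enzyme's subunit Idh3b differed by 0.30 ± 0.14 (SE).

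The pyruvate dehydrogenase complex, which feeds the cycle from glucose, had a p under 0.05 in 3 of its genes. Dlat, the E2 core, differed by 0.28 ± 0.11 (SE), the E3 component Dld by 0.21 ± 0.09 (SE) and the E1 subunit Pdhb by 0.22 ± 0.10 (SE). Dld read 2.08, 2.26 and 2.36 in the vehicle hearts and 2.22, 2.47 and 2.58 in the nano-TiO2 hearts. Pyruvate carboxylase (Pcx), which is also abundant in fat, was the sole member with a lower mean, at -0.45 ± 0.31 (SE) (unadjusted p over 0.05). Its highest vehicle values were in mice 1 and 5 (1.93 and 2.35), the vehicle mice with the highest adipocyte means. Without vehicle mice 1, 4 and 5 all 24 members were above 0 and the median was 0.12, with 1 member at a p under 0.05. The medians within the 3 scan days were 0.08, 0.34 and 0.09. Under median centring 13 of 24 were above 0, where 16.8% of all genes were.

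Fuel-handling lists leaned the same way. For fatty acid uptake and oxidation 25 of 30 genes were higher, with a median of 0.17. It was 0.10 without vehicle mice 1, 4 and 5, and 0.10, 0.27 and 0.06 within the scan days. With nano-TiO2 mouse 1 left out beside those vehicle mice it was 0.06. Its lowest value across the processing settings was 0.03. Hadha, the alpha subunit of the mitochondrial trifunctional protein, read 1.37, 1.82 and 2.16 against 2.02, 2.13 and 2.22, a difference of 0.34 ± 0.12 (SE). Its vehicle values were lowest in mice 4 and 5 (1.45 and 1.37), and without vehicle mice 1, 4 and 5 the difference was 0.12. Enoyl-CoA hydratase Echs1 was higher by 0.19 ± 0.08 (SE) and kept a difference of 0.19 without those mice. Malonyl-CoA decarboxylase Mlycd differed by 0.31 ± 0.14 (SE). Of the pathway's transcription regulators, Ppara differed by -0.09 ± 0.12 (SE, unadjusted p over 0.05) and Ppargc1a by 0.04 ± 0.08 (SE, unadjusted p over 0.05), and neither sign held under every processing.

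Of glucose uptake and glycolysis genes, 17 of 21 were higher, with a median of 0.13. It was 0.07 without vehicle mice 1, 4 and 5 and 0.19 without vehicle mouse 3 alone. Within the scan days it was 0.03, 0.31 and 0.08. Without vehicle mice 1, 4 and 5 and nano-TiO2 mouse 1 it was 0.04. Its lowest value across the processing settings was 0.01. Hexokinase 1 (Hk1) read 0.02, 0.21 and 0.30 in the vehicle hearts and 0.18, 0.35 and 0.60 in the nano-TiO2 hearts, higher on 5 of 6 slides by 0.18 ± 0.09 (SE). Aldoa, muscle aldolase, differed by 0.39 ± 0.15 (SE) with 4 nano-TiO2 values after outlier spots were left out. For amino acid and ketone metabolism 12 of 16 were higher, with a median of 0.06. Under median centring 5 were higher and the median was -0.08, beside 16.8% and -0.10 over all genes. The cytosolic aspartate aminotransferase Got1 read 2.58, 2.61 and 2.85 against 2.62, 2.95 and 3.19 (difference 0.28 ± 0.10 (SE)). Its mitochondrial partner Got2 differed by 0.20 ± 0.09 (SE), and Oxct1, which activates ketone bodies for oxidation, by 0.27 ± 0.12 (SE).

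The contractile genes were higher in 21 of 23 cases with a median of 0.15. Without vehicle mice 1, 4 and 5 it was 0.04, and within the scan days -0.02, 0.36 and 0.15. Under median centring it was -0.01, where that of all genes was -0.10. Cryab, a small heat shock protein of the Z-disc, was the sole member with a p under 0.05 (0.22 ± 0.09 (SE)). It read 4.23, 4.46 and 4.78 in the vehicle hearts and 4.55, 4.70 and 4.97 in the nano-TiO2 hearts, and its second probe differed by -0.15. Of the myosin heavy chains, Myh6, the adult form in mice, differed by 0.13 ± 0.15 (SE, unadjusted p over 0.05) over 5 vehicle and 4 nano-TiO2 hearts, and Myh7, the form that returns in stressed hearts, by 0.00 ± 0.19 (SE, unadjusted p over 0.05). Phospholamban (Pln), the brake on the calcium pump, was higher by 0.32 ± 0.13 (SE) with 6.38, 6.50 and 6.88 against 6.58, 6.94 and 7.20, while the pump Atp2a2 differed by 0.17 ± 0.13 (SE) (unadjusted p over 0.05). The calcium handling list had a median of 0.04, but -0.08 under median centring, where that of all genes was -0.10. Without vehicle mice 1, 4 and 5 it was -0.07, with 9 of 14 genes lower.

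**Figure D3:**
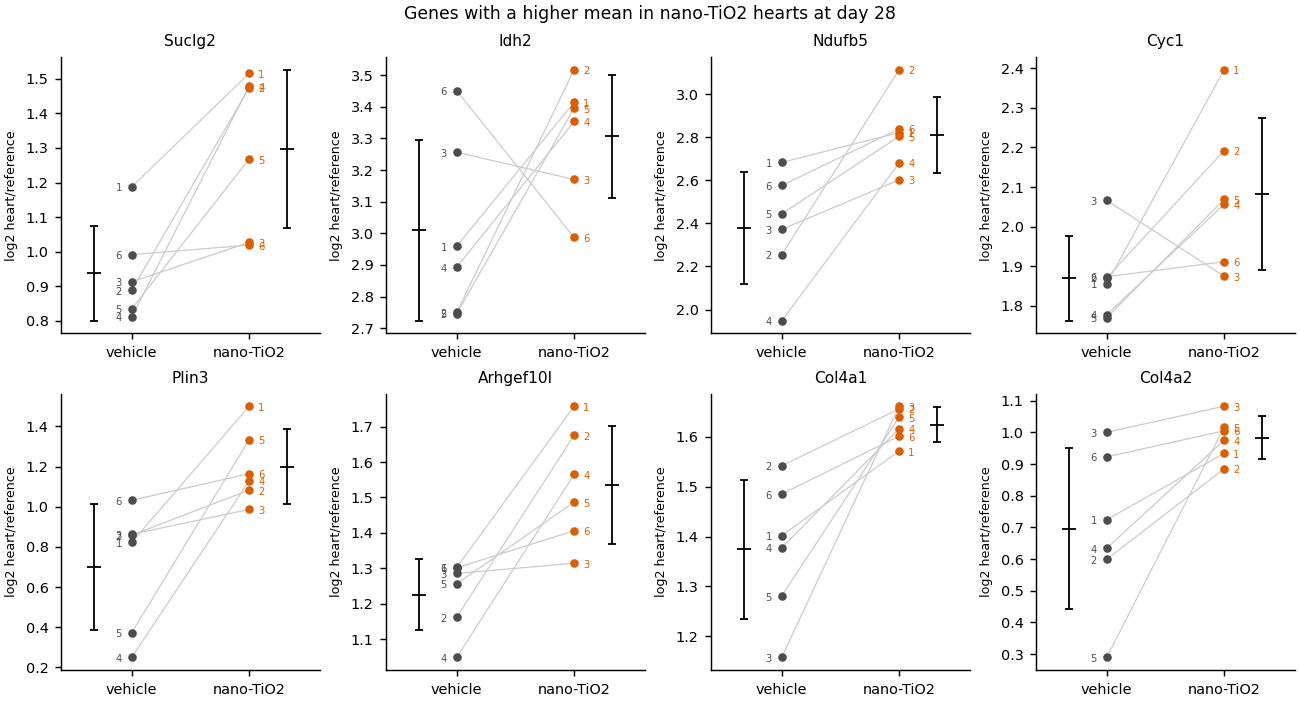
Points give the log2 heart-to-reference ratio of 8 genes in each of the 6 vehicle (grey) and 6 nano-TiO2 (orange) hearts at day 28, numbered by mouse, with grey lines joining the 2 hearts of a slide and bars giving mean and SD. All 6 nano-TiO2 points lie above all 6 vehicle points for Arhgef10l and Col4a1, and every slide line slopes up for Suclg2, Ndufb5, Plin3, Arhgef10l, Col4a1 and Col4a2.

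The basement membrane collagens Col4a1 and Col4a2, whose chains are built together, were higher on all 6 slides. Col4a1 read 1.16, 1.39 and 1.54 in the vehicle hearts and 1.57, 1.63 and 1.66 in the nano-TiO2 hearts, so the groups did not overlap; the difference was 0.25 ± 0.10 (SE) and that of its second probe 0.13. Col4a2 read 0.29, 0.68 and 1.00 against 0.89, 0.99 and 1.08, with vehicle mice 3 and 6 inside the nano-TiO2 range (difference 0.29 ± 0.12 (SE)). Col8a1, a network collagen of vessel walls, was higher by 0.26 ± 0.10 (SE). These 3 were the only members of the matrix and fibrosis list with a p under 0.05 that were higher. The list as a whole had 11 of 37 genes higher and a median of -0.08.

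Plin3, which coats lipid droplets, read 0.25, 0.84 and 1.03 in the vehicle hearts, and in the nano-TiO2 hearts its lowest value was 0.99 and its median 1.15. Only vehicle mouse 6 reached the nano-TiO2 range, the difference was above 0 on every slide, and it came to 0.50 ± 0.15 (SE). Arhgef10l, a guanine nucleotide exchange factor, read 1.05, 1.27 and 1.30 against 1.31, 1.53 and 1.76 without overlap, a difference of 0.31 ± 0.09 (SE). Mrpl1, a mitochondrial ribosomal protein, read 0.35, 0.58 and 0.64 against 0.64, 0.73 and 0.88, so that the groups touched without overlapping (difference 0.22 ± 0.09 (SE)). Akap1, which tethers protein kinase A to the outer mitochondrial membrane, differed by 0.39 ± 0.14 (SE) on 6 of 6 slides, while its second probe differed by -0.01. The pseudouridine synthase Pus1 differed by 0.26 ± 0.08 (SE) and the mitochondrial RNA-binding protein Tbrg4 by 0.29 ± 0.09 (SE). The largest higher difference past that p was in Ptgds, prostaglandin D2 synthase (0.72 ± 0.33 (SE)). It rested on vehicle mice 4 and 5, at 2.64 and 3.39 where the other 10 hearts read 4.23 to 5.20, and without vehicle mice 1, 4 and 5 it was 0.21.

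Enzymes that oxidise or methylate foreign compounds were lower. In the list of flavin monooxygenases, Inmt and other drug-metabolising enzymes 21 of 25 measured genes were lower and 15 had a p under 0.05, with a median of -0.33 (-0.17 without vehicle mice 1, 4 and 5, and -0.16, -0.69 and -0.17 within the scan days). Over all genes 51.9% were below 0 and 5.39% were lower at that p. Without vehicle mice 1, 4 and 5, 4 of the 25 were lower at that p. Fmo2, a flavin monooxygenase prominent in lung and vessel walls, read 1.66, 2.09 and 2.43 in the vehicle hearts and 0.83, 1.46 and 1.66 in the nano-TiO2 hearts. It was lower on all 6 slides, with a difference of -0.74 ± 0.18 (SE), or -0.67 without those mice; vehicle mouse 6 equalled the highest nano-TiO2 hearts, so the groups met at 1.66. Fmo1 differed by -0.33 ± 0.13 (SE).

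Indolethylamine N-methyltransferase (Inmt), which methylates tryptamine-like amines, read -0.01, 0.48 and 0.70 against -0.53, -0.30 and 0.22. Its difference was -0.65 ± 0.15 (SE), with vehicle mouse 6 among the nano-TiO2 values, and -0.48 without vehicle mice 1, 4 and 5. Adh1, alcohol dehydrogenase, read 2.61, 3.35 and 4.60 against 1.27, 2.41 and 3.20 (difference -1.28 ± 0.36 (SE)), and retinal-oxidising Aldh1a1 0.28, 1.43 and 2.40 against 0.00, 0.73 and 1.11 (difference -0.87 ± 0.28 (SE)). Cyp2f2, the club cell cytochrome, differed by -2.38 ± 0.64 (SE), but its vehicle values of 4.64, 2.67 and 5.30 in mice 1, 4 and 5 stood far above the others, and without them the difference was -0.42. Gsta3 showed -0.86 with all mice and 0.00 without those 3.

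**Figure D4:**
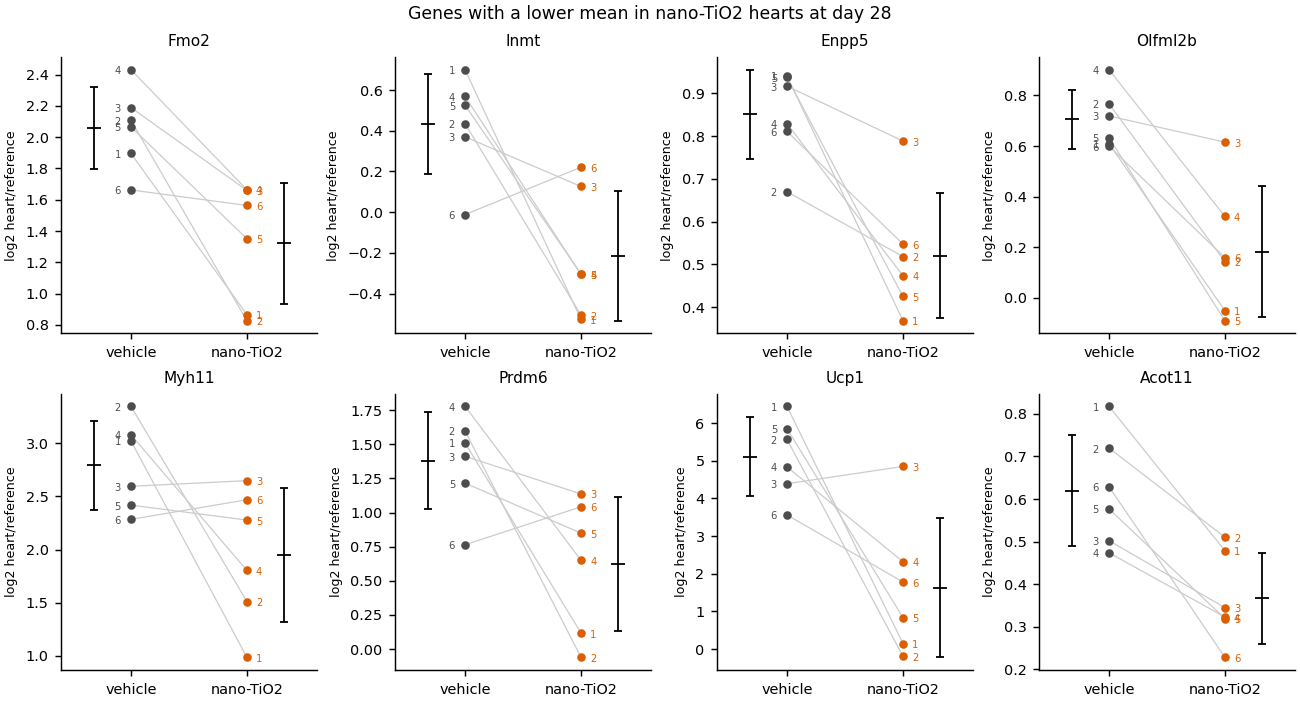
The same layout for 8 genes with a lower mean in the nano-TiO2 hearts. Every slide line slopes down for Fmo2, Enpp5, Olfml2b and Acot11, while for Ucp1 the nano-TiO2 hearts spread from -0.19 to 4.85 and mouse 3 lies within the vehicle range.

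The 16 measured smooth muscle and pericyte genes had a median of -0.01 (-0.06 without vehicle mice 1, 4 and 5), with 9 lower and 7 higher, yet 6 of the lower ones had a p under 0.05, among them the contractile genes of the vessel wall. Over all genes 5.39% were lower at that p. Without vehicle mice 1, 4 and 5, 1 of the 16 was lower at that p. Smooth muscle myosin Myh11 read 2.28, 2.81 and 3.35 in the vehicle hearts and 0.98, 2.04 and 2.65 in the nano-TiO2 hearts, a difference of -0.84 ± 0.25 (SE) that was -0.79 without vehicle mice 1, 4 and 5. Lmod1, an actin nucleator, differed by -0.89 ± 0.29 (SE), calponin Cnn1 by -1.51 ± 0.53 (SE), transgelin Tagln by -1.06 ± 0.42 (SE) and myosin light chain kinase Mylk by -0.48 ± 0.15 (SE). Nano-TiO2 mice 1, 2 and 4 held the low values: Cnn1 was -0.33, 1.39 and 2.01 there and 2.60 to 3.18 in mice 3, 5 and 6. The smooth muscle repressor Prdm6 read 0.76, 1.46 and 1.78 against -0.06, 0.75 and 1.14 (difference -0.76 ± 0.21 (SE)), and Csrp1, a LIM protein of smooth muscle, -1.69, -1.33 and -0.80 against -2.07, -1.91 and -1.61 (difference -0.54 ± 0.15 (SE)).

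Genes that set vessel tone were lower in 16 of 20 cases, with a median of -0.15. Endothelin-converting enzyme Ece1 read 1.59, 1.80 and 1.95 against 1.07, 1.44 and 1.69, lower on 5 of 6 slides, with a difference of -0.37 ± 0.12 (SE). The endothelin receptor Ednrb differed by -0.35 ± 0.16 (SE), prostacyclin synthase Ptgis by -0.32 ± 0.15 (SE) and the natriuretic peptide clearance receptor Npr3 by -0.65 ± 0.30 (SE). Vegfa, a growth factor for capillaries, went the other way (0.30 ± 0.14 (SE)), as did Apln, the peptide apelin (0.24 ± 0.11 (SE)). The endothelial list had a median of -0.03 (0.04 with the scanner's log ratios and -0.06 without vehicle mice 1, 4 and 5), with Kdr at 0.27 ± 0.14 (SE, unadjusted p over 0.05) and Nos3 at -0.15 ± 0.10 (SE, unadjusted p over 0.05).

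Of 16 mesothelial and epicardial genes 15 were lower, 9 with a p under 0.05, and the median was -0.56 (-0.33 without vehicle mice 1, 4 and 5, and -0.24, -1.12 and -0.16 within the scan days). Over all genes 5.39% were lower at that p. Without vehicle mice 1, 4 and 5, 0 of the 16 had such a p. Crip1, a LIM protein, read 1.29, 1.71 and 1.94 against 0.75, 1.06 and 1.64 (difference -0.50 ± 0.16 (SE)) and the tight junction protein Cldn15 1.31, 1.81 and 2.03 against 0.53, 1.10 and 1.75 (difference -0.61 ± 0.20 (SE)). Wt1, the epicardial transcription factor, differed by -0.26 ± 0.11 (SE). Here too nano-TiO2 mice 3 and 6 stood apart, with list means of 0.28 and 0.43, above vehicle mice 3 and 6 at -0.01 and -0.16, whereas nano-TiO2 mice 1, 2, 4 and 5 lay between -0.87 and -0.31. The adipocyte means of the same 4 hearts were -1.52 to -0.62, and the part of fat transcripts in this difference was not tested.

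Of 25 fibroblast genes 23 were lower, with a median of -0.25 (-0.16 without vehicle mice 1, 4 and 5) and 4 with a p under 0.05. Over all genes 5.39% were lower at that p. Without vehicle mice 1, 4 and 5, 0 of the 25 had such a p. The median was -0.12 without nano-TiO2 mouse 1, and -0.07 without that heart and those 3 vehicle hearts. Dermatopontin (Dpt) differed by -0.47 ± 0.18 (SE), the microfibril protein Mfap4 by -0.67 ± 0.30 (SE) and Dpp4 by -0.33 ± 0.12 (SE). The secreted matrix protein Olfml2b read 0.60, 0.68 and 0.90 against -0.09, 0.15 and 0.62. It was lower on all 6 slides, with a difference of -0.52 ± 0.12 (SE), or -0.51 without vehicle mice 1, 4 and 5. A single nano-TiO2 heart, mouse 3, lay in the vehicle range. Ccn2, a matrix-bound growth factor gene, was lower on all 6 slides too, with a difference of -0.70 ± 0.38 (SE) (unadjusted p over 0.05).

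Complement, antigen presentation and macrophage lists had negative medians that lay nearer 0 without vehicle mice 1, 4 and 5. Of 24 complement genes 22 were lower, with a median of -0.45, which was -0.16 without those 3 mice. Serping1, the C1 inhibitor, differed by -0.47 ± 0.14 (SE) and -0.38 without those mice. Its values were 3.70, 3.84 and 4.08 in the vehicle hearts and 2.73, 3.50 and 3.72 in the nano-TiO2 hearts, with nano-TiO2 mouse 1 the lowest. Antigen presentation had 14 of 16 genes lower and a median of -0.24 (-0.04 without those mice). The class II invariant chain Cd74 read 0.31, 1.08 and 1.29 against -0.32, 0.15 and 1.02 (difference -0.60 ± 0.22 (SE)), and the peptide loader H2-DMb1 differed by -0.65 ± 0.21 (SE) although its second probe differed by 0.09. Macrophage genes had 24 of 26 lower with a median of -0.18. It was -0.08 with 18 lower without those 3 mice, and -0.10 without nano-TiO2 mouse 1 alone. Csf1r, the receptor on which macrophages depend, differed by -0.25 ± 0.12 (SE) (unadjusted p over 0.05).

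The sign of the interferon list's median depended on the mice used. With all 12 hearts 21 of 31 genes were lower and the median was -0.11; without vehicle mice 1, 4 and 5 28 were higher and the median was 0.14, against 44.7% of all genes above 0. Vehicle mouse 4 had a list mean of 0.86, the other 11 hearts -0.35 to 0.27. The interferon-induced GTPase Igtp read 3.67 in that mouse and 0.44 to 1.24 in the others. Ifi44 had a higher mean in the nano-TiO2 hearts, at -1.30, -0.99 and -0.60 in the vehicle hearts and -0.97, -0.78 and -0.43 in the nano-TiO2 hearts (difference 0.27 ± 0.11 (SE)), or 0.46 without vehicle mice 1, 4 and 5. Lymphocyte genes were lower in 12 of 12 cases (median -0.25), a median that was 0.03 without those mice. The alarmin Il33 differed by -0.56 ± 0.22 (SE).

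The adipocyte list had a median of -0.61 with 3 of 20 genes at a p under 0.05. The median was -0.10 without vehicle mice 1, 4 and 5, with 9 of 20 genes higher and 0 at that p. The list mean ran from -0.58 to 1.15 in the vehicle hearts and from -1.52 to 0.97 in the nano-TiO2 hearts, so the groups overlapped. Adipoq, the fat cell hormone, read 2.99, 5.00 and 6.72 against 0.09, 2.83 and 6.36 (difference -1.94 ± 0.97 (SE), unadjusted p over 0.05). The brown fat list, which holds genes that heart muscle also makes, had 7 of 14 genes higher and a median of -0.01 (-0.03 without those mice). Yet 6 of the lower genes had a p under 0.05, where 5.39% of all genes were lower at that p. Without those mice 3 of the 14 were lower at that p. The list mean was lower on 5 of 6 slides. Uncoupling protein Ucp1, the defining gene of brown fat, read 3.56, 5.20 and 6.45 against -0.19, 1.31 and 4.85 (difference -3.49 ± 0.84 (SE)), and -2.89 without vehicle mice 1, 4 and 5. Deiodinase Dio2 differed by -0.74 ± 0.26 (SE). Acot11, a thioesterase induced by cold in brown fat, read 0.47, 0.60 and 0.82 against 0.23, 0.33 and 0.51, a small difference seen on all 6 slides (-0.25 ± 0.07 (SE)), and -0.25 without those mice. Plin5, of oxidative muscle, differed by 0.29 ± 0.15 (SE) (unadjusted p over 0.05).

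**Figure D5:**
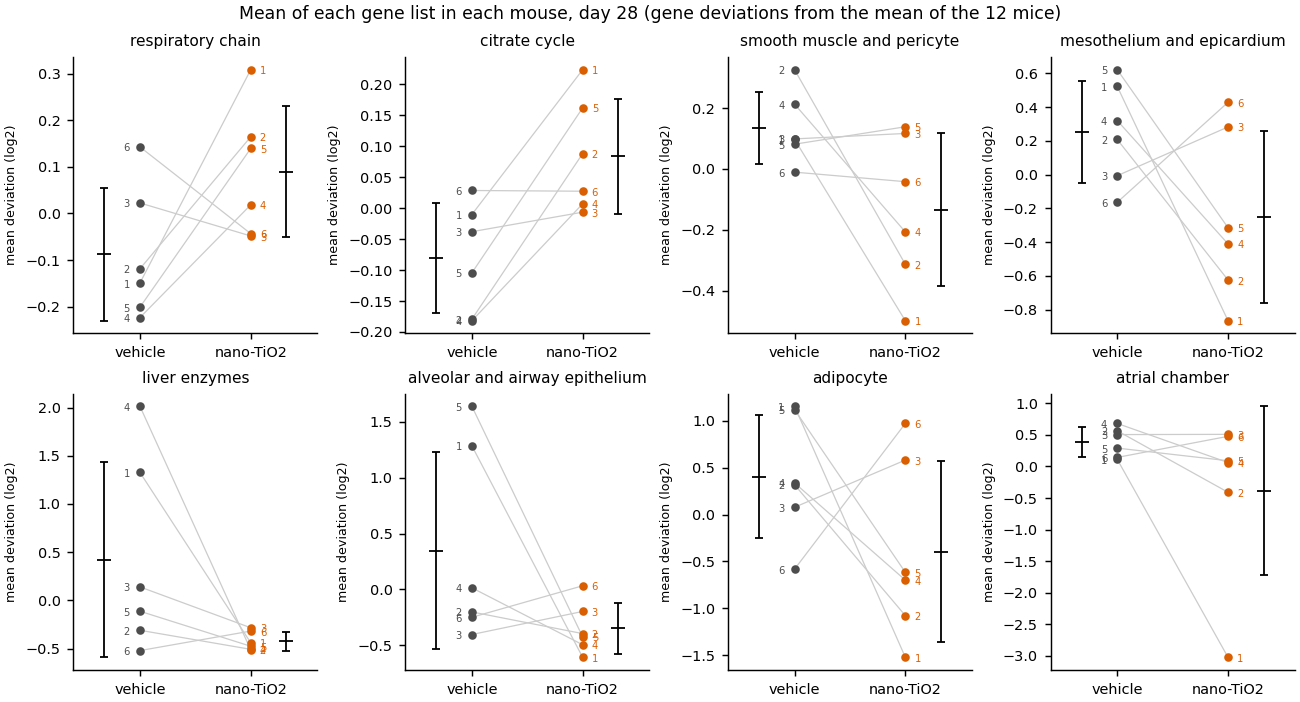
Points give the mean of a gene list in each of the 6 vehicle (grey) and 6 nano-TiO2 (orange) hearts at day 28, as log2 deviations from each gene's mean over the 12 hearts, numbered by mouse, with lines joining the hearts of a slide and bars giving mean and SD; panels have their own scales. Liver enzymes are highest in vehicle mice 4 and 1 (2.01 and 1.33), airway genes in vehicle mice 5 and 1 (1.64 and 1.29), and atrial genes lowest in nano-TiO2 mouse 1 (-3.02).

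Transcripts of liver and airway were lower in the nano-TiO2 hearts, with the high values in a few vehicle hearts. All 28 measured plasma protein genes and all 13 liver enzyme genes were lower, with medians of -1.05 and -0.84, and these medians were -0.14 and -0.21 without vehicle mice 1, 4 and 5. With vehicle mouse 3, also rich in liver transcripts, left out too, they were 0.05 and -0.01. Leaving out vehicle mouse 4 alone gave -0.65 and -0.47. Within the scan days, with every heart kept, they were -1.72, -1.40 and -0.05 for the plasma proteins and -1.64, -0.93 and -0.09 for the enzymes. Ambp, a precursor of plasma inhibitors, read 4.64, 2.33 and 5.86 in vehicle mice 1, 3 and 4 and -0.03 to 1.24 in the other vehicle hearts, against -0.39, 0.00 and 1.02 in the nano-TiO2 hearts. Prothrombin (F2) was above background in 4 vehicle hearts and no nano-TiO2 heart, at least 2.47-fold lower. This bound sets the vehicle mean against the lowest signal well above background on each nano-TiO2 array, or the probe's own signal where higher. Without vehicle mice 1, 3, 4 and 5 the log2 difference of F2 was 0.0258. Cyp2a5, a cytochrome of liver and airway, differed by -3.02 ± 0.78 (SE). Its vehicle values were 5.79, 2.23, 4.61 and 6.43 in mice 1, 3, 4 and 5 and 0.01 and 0.16 in mice 2 and 6. The fatty acid transporter Slc27a2, expressed in liver and kidney, is in the liver enzyme, brown fat and fatty acid lists. It was above background in 5 vehicle hearts and 1 nano-TiO2 heart, at 0.28, 1.10 and 2.17 against -0.10, 0.07 and 0.93. It kept a difference of -0.56 without vehicle mice 1, 4 and 5, where all 6 vehicle hearts had given -1.04 ± 0.23 (SE). Without vehicle mouse 6 alone, Slc27a2 and the liver glycogen synthase Gys2, named after its value was seen, were among the 3 genes that passed the threshold, each at an adjusted p of 0.0491 in limma.

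The airway list had 13 of 14 genes lower and a median of -0.58, or -0.05 without vehicle mice 1, 4 and 5. Scgb1a1, the club cell secretoglobin, read 3.95 and 3.54 in vehicle mice 1 and 5 and -0.08 to 0.14 in the other vehicle hearts. In the nano-TiO2 hearts it was nowhere above background, and the difference was -1.27 ± 0.54 (SE). Without vehicle mice 1, 4 and 5 it was -0.04. Scgb3a1 showed the same mice, with 5.03 and 5.23 in vehicle mice 1 and 5 and 0.37 to 0.65 in the other 10 hearts.

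The 11 measured atrial genes had a median of -0.97 (-1.01 without vehicle mice 1, 4 and 5), of -0.19 without nano-TiO2 mouse 1 alone, and of -0.16 when nano-TiO2 mouse 1 was left out with vehicle mice 1, 4 and 5. The atrial light chain Myl7 read 2.17 in nano-TiO2 mouse 1 and 7.29 to 7.81 in the other 11 hearts. Bmp10, a growth factor of the atrial wall, was low in nano-TiO2 mice 1 and 2 (0.09 and 0.24) and read 2.17, 2.98 and 3.95 in the vehicle hearts (difference -1.21 ± 0.52 (SE)). Natriuretic peptide and stress genes had a median of 0.00 (-0.06 without vehicle mice 1, 4 and 5). Nppb, the B-type natriuretic peptide, read -1.55 in nano-TiO2 mouse 4 and 5.14 to 6.30 in the other 11 hearts, a gap not shared by its second probe, which differed by 0.24 between the groups. The skeletal actin Acta1, a fetal gene of stressed heart muscle, differed by 0.50 ± 0.35 (SE) (unadjusted p over 0.05).

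Several single genes outside these lists had small, even differences. Enpp5, a membrane ectoenzyme, read 0.67, 0.87 and 0.94 in the vehicle hearts and 0.37, 0.50 and 0.79 in the nano-TiO2 hearts, lower on all 6 slides, with a difference of -0.33 ± 0.08 (SE); nano-TiO2 mouse 3 alone fell in the vehicle range. The ubiquitin ligase Rnf141 read 0.94, 1.09 and 1.29 against 0.60, 0.77 and 1.00, also on all slides (-0.33 ± 0.09 (SE)), while its 3 other kept probes gave smaller differences. Trp53bp2, which binds p53, read 0.41, 0.49 and 0.58 against 0.08, 0.31 and 0.39 and the disulfide isomerase Tmx3 0.25, 0.27 and 0.42 against 0.00, 0.12 and 0.25; the groups did not overlap for either, and the differences were -0.21 ± 0.07 (SE) and -0.19 ± 0.06 (SE). The mitochondrial outer membrane protein Armcx1 differed by -0.33 ± 0.09 (SE) and the cyclin Ccnl2, linked to splicing, by -0.32 ± 0.09 (SE).

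The lipid droplet list had a median of -0.10 (0.07 with the scanner's log ratios and -0.01 without vehicle mice 1, 4 and 5), and its members with a p under 0.05 went both ways: Plin3 was higher, and Plin1, which coats the droplets of fat cells, was lower, with a difference of -2.04 ± 0.83 (SE). Plin1 read -0.09 and -0.01 in nano-TiO2 mice 1 and 2 and 4.15 and 4.99 in mice 3 and 6. Cytokine and chemokine genes were lower in 24 of 31 cases, where 51.9% of all genes were, with a median of -0.10 (-0.04 without vehicle mice 1, 4 and 5). Osmr, the oncostatin M receptor, differed by -0.27 ± 0.10 (SE) and the scavenger ligand Cxcl16 by -0.32 ± 0.14 (SE), whereas Cxcl12, which holds blood progenitors in tissue, was higher by 0.30 ± 0.14 (SE). Of 8 nerve and glia genes 7 were lower, and 4 had a p under 0.05, where 5.39% of all genes were lower at that p. Without vehicle mice 1, 4 and 5, 0 of the 8 had such a p. The glial calcium-binding protein S100b had a median of 2.97 in the vehicle hearts and 2.39 in the nano-TiO2 hearts, and differed by -0.62 ± 0.25 (SE).

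Among genes of the response to low oxygen, the phosphofructokinase regulator Pfkfb3 was lower, with a difference of -0.97 ± 0.33 (SE). In the hearts with the highest adipocyte means it read 2.08 and 1.78 (vehicle mice 1 and 5) and 1.08 and 1.15 (nano-TiO2 mice 3 and 6). Values of the other hearts are not reported here, and the part of fat transcripts in this difference was not tested. Egln3, a prolyl hydroxylase that senses oxygen, read -0.96, -0.71 and -0.50 against -0.61, -0.46 and -0.09 and was higher by 0.32 ± 0.12 (SE), with 0.38 without vehicle mice 1, 4 and 5. Hif1a differed by 0.25 ± 0.12 (SE). The list's median was 0.06, 0.03 without those mice and -0.08 under median centring, where that of all genes was -0.10. Gap junction protein Gja1, the main connexin of the ventricle, was higher on 5 of 6 slides by 0.27 ± 0.12 (SE), and the small heat shock protein Hspb6 by 0.39 ± 0.15 (SE) on 4 of 6.

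Lists of cellular stress responses had medians between -0.08 and 0.07, which were -0.08 for Nrf2 targets and metallothioneins, 0.07 for antioxidant enzymes, 0.05 for heat shock chaperones, 0.00 for endoplasmic reticulum stress, 0.04 for the DNA damage response and 0.00 for autophagy and lysosome genes. Each of the positive ones was negative under median centring, where the median over all genes was -0.10. Without vehicle mice 1, 4 and 5 the medians of these lists ran from -0.01 to 0.04. Nfe2l2, the gene of Nrf2 itself, was lower, with a difference of -0.22 ± 0.10 (SE) and a 95% interval of -0.42 to -0.01. Transketolase (Tkt), an Nrf2 target also abundant in fat, differed by -1.11 ± 0.45 (SE). Ribosomal protein genes were lower in 25 of 30 cases with a median of -0.08, and Rps19 differed by -0.20 ± 0.10 (SE). Clock genes had a median of -0.04 (-0.10 without those mice); Arntl, the core activator, was higher by 0.30 ± 0.15 (SE) (unadjusted p over 0.05).

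Day 1 hearts received the same liquids and were taken 1 day after dosing. The 10 day 1 hearts share no array with day 28, and no gene passed an adjusted p of 0.05 for the difference between the days (smallest adjusted p 0.0694, limma), while 2289 genes had an unadjusted p under 0.05, 14.8% of those tested. Across the 15503 genes the day 28 and day 1 differences had, across genes, which are not independent replicates, a correlation of -0.53, and at day 1 the difference was above 0 for 54.2% of genes. List medians at day 1 were -0.16 for the respiratory chain, -0.18 for the citrate cycle, 0.72 for mesothelium and 0.64 for adipocytes. Ndufb5 differed by -0.19 at day 1, Suclg2 by -0.30, Fmo2 by 0.70 and Myh11 by 1.05. These day 1 differences are given without a p-value, and the remark on p above covers day 28 only. Genes close to 0 at day 1 included Col4a1 (-0.02), Akap1 (0.07) and Csrp1 (0.04).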

How the data were processed

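The 12 arrays are Agilent 2-colour arrays, 1 mouse each. Intensities were deposited as the scanner's median spot and background intensities, with log10 ratios of Cy5 over Cy3 deposited beside them, from Feature Extraction 10.7.3.1 per the file headers (9.5.3.1 per the submitters' processing notes). The authors' deposited table of log2 ratios (column medians -0.0362 to -0.0207) correlated better with ratios without background subtraction (r 0.992 to 0.998) than with the background-corrected ratios. The positive r settled its direction, but a correlation does not depend on the log base and cannot settle it. The table's centring is not given in the sources used here. Intensities were background-corrected by normexp (offset 50, fitted on spots without an uneven background) and loess-normalized within arrays in limma 3.58.1 (R 4.3.3), with control spots at weight 0 and outlier spots left out (0.418%). Probes well above background in Cy5 on 5 or more of 22 arrays were kept (19275 of 41174), 1 per gene, that with the highest mean Cy5, which gave 15503 genes, 10477 of them with a symbol. limma fitted 4 group means over 22 arrays with Benjamini-Hochberg adjustment, checked on simulated data. P-values measure the spread between mice of one experiment.

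Named genes are the 15 with the smallest p in each direction, the 8 with the largest differences, those without overlap and with 1 sign on every slide, and members of the 52 lists. Some genes that the rule names are not reported here. Members and lists were chosen with earlier results of these data known. Alternatives changed the background, normalization, filter, probe summary, weights, blocks and samples. Replicate numbers follow accession order.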

Additional observations from a re-analysis of the deposited data

Results flagged for a closer look

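In groups of 6 hearts, a value was picked out where its gap to the nearest other heart was a large share of the group's range by Dixon's test; chance picks about 1 in 20 groups, and 270 gene groups and 104 list groups were looked at, of which 15 and 4 stood out. Nano-TiO2 mouse 1 was low for Myl7 (2.17, nearest heart 7.29) and for the atrial list mean (-3.02, nearest -0.41). It was also low for Serping1 (2.73, nearest 3.36) and for the calcium handling mean (-0.30, nearest -0.01), and high for the amino acid and ketone mean (0.25, nearest 0.04). Vehicle mouse 4 was high for Igtp (3.67, nearest 1.24), for the interferon mean (0.86, nearest 0.16) and for Mfap4 (4.23, nearest 3.62), and low for Acta1 (2.19, nearest 3.61). Nano-TiO2 mouse 3 was high for the liver genes Fabp1 (1.48, nearest 0.50) and Ces1c (1.30, nearest 0.45), for Cyp2a5 (0.55, nearest 0.17) and for the endothelin receptor Ednrb (1.85, nearest 1.18), and low for Acta1 (2.73, nearest 4.03). Nano-TiO2 mouse 4 was low for Nppb (-1.55, nearest 5.59). Vehicle mouse 6 was low for Abi1 (-0.43, nearest -0.15) and for Dpp4 (0.12, nearest 0.43). Vehicle mouse 3 was high for Cyc1 (2.07, nearest 1.87), and vehicle mouse 1 was low for Myh7 (4.48, nearest 5.04).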

How the results depend on the processing

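Of 135 named genes followed under 32 alternatives, 115 kept their sign in each. The count past the adjusted threshold was 0 except for 1 gene with plain background subtraction (Slc27a2, difference -4.56, adjusted p 0.00333 in limma) and 3 without vehicle mouse 6, so it ran from 0 to 3 when single mice were left out. The count at an unadjusted p under 0.05, 1178, became 463 with the background model fitted on all spots, 1807 with the scanner's log ratios, 387 with median centring (a setting in which the 15503 genes had a median of -0.10), and 2046 with no filter on dim probes, where 33269 genes were tested. It was 482 without vehicle mice 1, 4 and 5, 373 without mouse 3 as well, 324 without vehicle mice 1, 4 and 5 and nano-TiO2 mouse 1, and 634 to 1748 with single mice left out, lowest without nano-TiO2 mouse 1 and 769 without vehicle mouse 4. The number of genes differing between day 28 and day 1, 0, became 48 with the scanner's log ratios, 135 with array weights, 6 with scan day as a block, and 0 to 180 with single mice left out, most without nano-TiO2 mouse 3, 99 without vehicle mouse 6 and 33 without nano-TiO2 mouse 6. With the slide as a block no gene was called and 1083 had an unadjusted p under 0.05; with scan day as a block these were 0 and 1448. Signs turned as follows, and the cause was not tested. Under median centring the difference was -0.0308 for Drg1, -0.16 for Cycs, -0.10 for Ppargc1a and -0.10 for Sdhc. With the background model fitted on all spots it was -0.15 for Ppargc1a and -0.0739 for Sdhc, with Cy5 alone 0.39 for Nppb, -0.0579 for Ppargc1a and -0.0102 for Sdhc, with the scanner's log ratios 0.0925 for Myh7 and 0.16 for Ppara, and with plain subtraction 0.0460 for Myh7 and 0.0667 for Ppara. For Myh7 it was 0.0836 with scaling between arrays and 0.0113 with array weights. Without vehicle mice 1, 4 and 5 it was -0.0394 for Cycs, 0.00129 for Gsta3, 0.16 for Igtp, -0.0722 for Myh6, 0.0636 for Pcx, 0.0663 for Scgb3a1 and -0.0606 for Sdhc. Without vehicle mice 1, 3, 4 and 5 it was 0.10 for Cyp2a5, 0.37 for Fabp1, 0.0824 for Cyp2a4, 0.24 for Ces1c, 0.61 for Mup1, 0.58 for Alb, -0.0654 for Cycs, 0.0258 for F2, 0.12 for Gsta3, 0.22 for Igtp, 0.0925 for Pcx, 0.00637 for Scgb1a1 and 0.0923 for Scgb3a1. Without vehicle mice 1, 4 and 5 and nano-TiO2 mouse 1 it was -0.0676 for Cycs, 0.0747 for Gsta3, 0.22 for Igtp, -0.0722 for Myh6, 0.0864 for Pcx, -0.0305 for Ppargc1a, 0.0667 for Scgb3a1 and -0.0839 for Sdhc. With single mice left out the ranges were -0.0394 to 0.11 for Cycs, -0.11 to 0.17 for Myh7, -1.33 to 0.24 for Nppb, -0.0181 to 0.0848 for Ppargc1a and -0.0208 to 0.15 for Sdhc. Probes not well above background in a group bound a difference on that side, and 6 arrays a group limit the precision of all values. The slide block pairs each vehicle heart with the nano-TiO2 heart of its slide; replicate numbers otherwise follow accession order, and the labels pair no mice.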

Other observations

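Genes induced by glucocorticoids differed with the mice used. Over all 12 hearts the 20 measured genes had a median difference of -0.11, with 14 lower, and without vehicle mice 1, 4 and 5 it was -0.40. It was 0.02 without vehicle mouse 3 alone. Klf15, a regulator of fuel use in heart muscle, read 3.56, 3.83 and 3.06 in vehicle mice 2, 3 and 6, 2.06 to 3.12 in vehicle mice 1, 4 and 5 and 2.12 to 3.55 in the nano-TiO2 hearts. The transcription factor Cebpd read 0.31 and 0.24 in vehicle mice 2 and 3 and -1.55 to 0.02 in the other 10 hearts. List means were 0.46 and 0.47 in vehicle mice 2 and 3 and -0.35 to 0.20 in the other 10.

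Arntl, which peaks in mouse tissues opposite to the Per genes, read -0.20 in vehicle mouse 3 and 0.37 to 1.06 in the other 11 hearts, and without vehicle mice 1, 4 and 5 its difference was 0.51. The time of day at which hearts were taken is not given in the labels used here.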
